A study of Mus musculus with 4 samples.

Results

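The mitochondrial ribosomal protein genes were taken as every row of the expression table whose symbol begins with Mrpl or Mrps followed by a digit, and 77 of the 24341 genes met this rule. Of these, 48 carried a large subunit symbol (Mrpl) and 29 a small subunit symbol (Mrps). The members were chosen by symbol and, for fold changes, by their average level, which had to reach 1 FPKM across all 4 libraries. All 77 passed: the lowest mean was 6.58 FPKM (Mrpl11), so the threshold removed no member and none lay near it. The values were read as FPKM, although no unit is named for them. FPKM are fragments scaled to transcript length and to library size, so that levels of genes of different length can be set side by side.

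The libraries came from CAD, a mouse line of catecholaminergic neuronal origin whose cells put out processes when serum is withdrawn. All cultures, controls included, were held in serum-free medium for 5 days. The control group received DMSO for 24 h (and is also labelled untreated), and the other group received 20 µM ACSS2i for 24 h, a quinoxaline urea that the labels give as an inhibitor of ACSS2, which turns acetate into acetyl-CoA outside the mitochondria. When within the 5 days the 24 h fell is not stated. Each group had 2 libraries of polyadenylated RNA from this 1 line, and no label tells whether a group's libraries stem from different cultures. The p-values therefore rest on a spread between libraries that may be purely technical. The comparison asked how transcript levels differed when the enzyme was inhibited.

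Mitochondria carry their own ribosome, which translates the few mRNAs of the mitochondrial genome into core subunits of the respiratory chain and the ATP synthase. Its ribosomal RNAs are transcribed inside the organelle, while every protein is encoded in the nucleus, made in the cytosol and imported. Some of these proteins descend from the bacterial ribosome (called bacterial-type below), and others were added during mitochondrial evolution (mitochondria-specific). With few exceptions each protein occurs as a single copy per ribosome.

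The DMSO libraries had a nominal 11800000 and 3430000 reads and the ACSS2i libraries 7930000 and 10100000, read from the spacing of the low values. At these depths a median member had a nominal 361, 95.1, 241 and 387 reads in DMSO replicates 1 and 2 and ACSS2i replicates 1 and 2, and 40 of the 77 members had fewer than 100 reads in DMSO replicate 2. Of 16 markers of a catecholaminergic neuronal line, 15 had a mean of at least 1 FPKM. Without overlap 3 of these were lower with ACSS2i (Chgb, Scg2 and Syp), 0 higher, and 12 overlapped (all genes tested: 18.3% lower and 19.0% higher). The share of lower markers was near that of all genes. Their summed level was 8659 and 12507 FPKM with DMSO and 5542 and 4507 FPKM with ACSS2i, mostly from Chgb. Without Chgb the sums overlapped, at 1858 and 2497 FPKM with DMSO and 1089 and 1998 FPKM with ACSS2i. Dbh, a defining enzyme of noradrenaline synthesis, stayed under 1 FPKM in all 4 libraries. All 5 markers each of astrocytes, of microglia and macrophages, and of fibroblasts had means under 1 FPKM. The summed level of 20 genes of G2 and mitosis was 14.2 and 28.8 FPKM with DMSO and 134 and 317 FPKM with ACSS2i. Both ACSS2i libraries were above both DMSO libraries in 20 of 20 (all genes tested: 19.0%). By limma 0 of these 20 had an adjusted and 20 an unadjusted p under 0.05 (all genes: 0.0261% and 6.96%). The genes of mitosis moved with the groups in every comparison below, and their part in the results was not tested. Acss2, which encodes the inhibited enzyme, was at 11.7 and 10.0 FPKM with DMSO and 12.8 and 26.6 FPKM with ACSS2i. In bulk RNA a change in the share of cells of a kind and a change in RNA per cell cannot be told apart.

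The 77 genes lay on 17 chromosomes (GENCODE M21, mm10). Of them 19 (24.7%) started head to head with another protein-coding gene, with start sites at most 1000 bases apart on opposite strands (an overlap of up to 100 bases was allowed), against 12.01% of the 10864 tested genes that have a position as protein-coding genes. RefSeq promoter windows of 300 bases (250 before to 50 after the start, GRCm38.p6) were at hand for 68 members (74 windows) and not for Mrpl4, Mrpl13, Mrpl15, Mrpl19, Mrpl38, Mrpl54, Mrps28, Mrps34 and Mrps35. These windows were searched on both strands for motifs of factors known to bind promoters of mitochondrial genes: the palindromic motif of NRF1, CCGGAAG for the ETS family with GABP, and AAGATGGCG for YY1. An NRF1 match stood in 13 member windows (17.6%), against 10.6% of the 11482 windows of genes tested and 4.60% of all 32851 windows. The ETS motif was found in 25 member windows (33.8%, against 18.5% and 8.86%), and the YY1 motif in 8 (10.8%, against 3.23% and 1.40%). TATAAA stood in 5 (6.76%, against 6.49% and 13.6%). At least 1 of the NRF1, ETS and YY1 motifs was present in 40 member windows (54.1%) and in 29.0% of the windows of genes tested, and matches of 2 different motifs overlapped in 0 member windows. Median GC content was 58.5% in member windows, 61.3% in those of genes tested and 52.7% in all windows. The shares are a description, with no test, and a match is not evidence of binding.

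**Figure D1:**
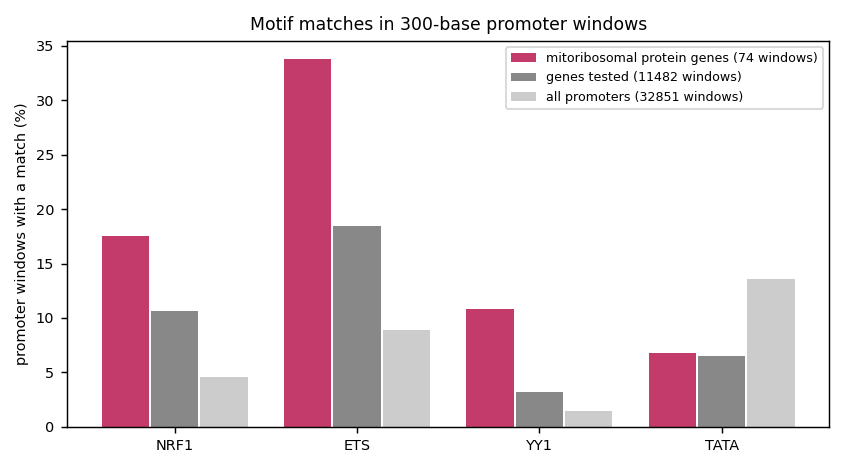
Share of promoter windows (%, vertical axis from 0) that hold each motif on either strand, for mitoribosomal protein genes, genes tested and all promoters. The NRF1, ETS and YY1 bars are higher for the mitoribosomal protein genes, and the TATA bars of members and genes tested are close, at 6.76% and 6.49%.

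Promoters of 5 members are printed because they show these motifs in genes on which the expression results below turn: the pair of members with the largest positive differences (Mrps12 and Mrpl45), the member with the largest negative one (Mrpl44), and a pair that shares its start region with a divergent gene (Mrps27 and Mrpl57). They were picked after the values were seen. Capitals mark motif matches in either orientation, which shows the NRF1 motif as it stands in Mrpl45, Mrpl44 and Mrpl57. The windows lie at chr7:28741772-28742071, minus strand, chr11:97315466-97315765, plus strand, chr1:79775768-79776067, plus strand, chr13:99344536-99344835, plus strand and chr14:57825989-57826288, plus strand (GRCm38.p6, each read 5′ to 3′ on its own strand).
Mrps12: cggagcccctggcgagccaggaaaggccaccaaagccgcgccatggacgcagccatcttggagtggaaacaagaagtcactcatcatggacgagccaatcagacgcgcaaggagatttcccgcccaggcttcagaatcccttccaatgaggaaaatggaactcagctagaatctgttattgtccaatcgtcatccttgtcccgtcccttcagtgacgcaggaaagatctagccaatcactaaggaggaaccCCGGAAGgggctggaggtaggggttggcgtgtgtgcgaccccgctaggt
Mrpl45: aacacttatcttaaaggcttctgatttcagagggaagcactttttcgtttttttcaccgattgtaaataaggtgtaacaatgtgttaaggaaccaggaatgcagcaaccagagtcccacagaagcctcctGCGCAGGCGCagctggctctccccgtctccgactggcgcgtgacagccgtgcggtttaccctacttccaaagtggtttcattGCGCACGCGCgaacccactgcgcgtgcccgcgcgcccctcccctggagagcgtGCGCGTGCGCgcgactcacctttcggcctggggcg
Mrpl44: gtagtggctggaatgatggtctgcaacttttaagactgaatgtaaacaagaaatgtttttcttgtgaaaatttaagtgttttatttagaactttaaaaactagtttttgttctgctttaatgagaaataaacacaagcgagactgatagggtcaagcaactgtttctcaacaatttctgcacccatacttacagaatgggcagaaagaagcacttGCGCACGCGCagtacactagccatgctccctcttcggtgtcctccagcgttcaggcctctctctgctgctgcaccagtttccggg
Mrps27: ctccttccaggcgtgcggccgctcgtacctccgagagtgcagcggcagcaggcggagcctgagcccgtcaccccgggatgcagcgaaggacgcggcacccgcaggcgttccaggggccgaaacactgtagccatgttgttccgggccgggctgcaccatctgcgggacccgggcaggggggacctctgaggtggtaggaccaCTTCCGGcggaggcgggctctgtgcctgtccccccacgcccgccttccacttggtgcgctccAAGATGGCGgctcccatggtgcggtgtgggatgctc
Mrpl57: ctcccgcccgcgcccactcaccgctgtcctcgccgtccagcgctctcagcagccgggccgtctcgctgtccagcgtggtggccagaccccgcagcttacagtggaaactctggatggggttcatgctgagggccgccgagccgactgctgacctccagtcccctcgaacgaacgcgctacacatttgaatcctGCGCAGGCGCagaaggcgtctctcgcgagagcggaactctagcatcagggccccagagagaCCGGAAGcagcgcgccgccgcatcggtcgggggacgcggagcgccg
The Mrpl45 window held 3 NRF1 matches and Mrpl44, which differed in the opposite direction, held 1. Mrps12 had 1 ETS match, Mrps27 had 1 ETS and 1 YY1 match, and Mrpl57 had 1 NRF1 and 1 ETS match. The 13 members with an NRF1 match had a median log2 difference between ACSS2i and DMSO of 0.30 and the 55 without one 0.12. Those with a match ran from -0.38 (Mrpl44) to 0.72 (Mrpl45). Higher without overlap were 6 of the 13 and 19 of the 55 (all genes tested: 19.0%). Mrpl44 and Mrps26 (-0.20), both with a match, were lower without overlap, a share of the 13 near that of all genes tested (18.3%). Whether members with and without a match differ was not tested. For the ETS motif the medians were 0.13 with and 0.13 without a match, and for YY1 0.085 and 0.14.

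Transcript levels spread 25.8-fold between members, from 6.58 to 169 FPKM in the mean of the 4 libraries, with a median of 36.3 FPKM. Means of at least 100 FPKM were reached by 7 members, and 5 stayed under 10 FPKM. Mrpl30, a bacterial-type protein of the large subunit, had the highest level of all, at 155 and 144 FPKM in the DMSO libraries and 190.0 and 188 FPKM in the ACSS2i libraries. Mrpl23, which sits at the exit of the peptide tunnel, was at 153 and 148 FPKM with DMSO and 156 and 187 FPKM with ACSS2i, and the mitochondria-specific Mrpl42 was at 147 and 170.1 FPKM with DMSO and 142 and 183 FPKM with ACSS2i. The ranges of these 3 overlapped, so their order is not resolved by 4 libraries. At the low end of the large subunit, Mrpl11, at the base of the flexible stalk that recruits translation factors, was at 6.64 and 5.08 FPKM in the DMSO libraries and 5.97 and 8.61 FPKM in the ACSS2i libraries. Mrpl19 (bacterial-type) was at 6.15 and 6.98 FPKM with DMSO and 7.25 and 8.07 FPKM with ACSS2i and Mrpl57 (mitochondria-specific) at 7.61 and 8.49 FPKM with DMSO and 7.78 and 9.01 FPKM with ACSS2i. Even the highest library of these 3 genes was far under the lowest of Mrpl30.

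Among small subunit symbols the highest level was that of Mrps36, at 120.5 and 137 FPKM in the DMSO libraries and 113 and 163 FPKM in the ACSS2i libraries. Despite its symbol, the Mrps36 protein is known as a subunit of the 2-oxoglutarate dehydrogenase complex of the citric acid cycle rather than as a ribosomal protein. Mrps10, a bacterial-type protein, was at 116 and 133 FPKM with DMSO and 94.3 and 136 FPKM with ACSS2i, overlapping Mrps36. The third, Mrps30, whose protein is part of the large subunit in spite of its name, was at 71.8 and 67.4 FPKM with DMSO and 109 and 93.0 FPKM with ACSS2i. Mrps12, the protein of the decoding centre, was lowest, at 8.81 and 3.99 FPKM in the DMSO libraries and 8.87 and 14.9 FPKM in the ACSS2i libraries. Just above it lay the mitochondria-specific Mrps25, at 12.2 and 10.7 FPKM with DMSO and 12.7 and 12.4 FPKM with ACSS2i, and the bacterial-type Mrps11, at 17.9 and 16.9 FPKM with DMSO and 10.7 and 20.2 FPKM with ACSS2i. Median levels over the members were 32.1 FPKM for Mrpl and 46.7 FPKM for Mrps genes, both means of 4 libraries.

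**Figure D2:**
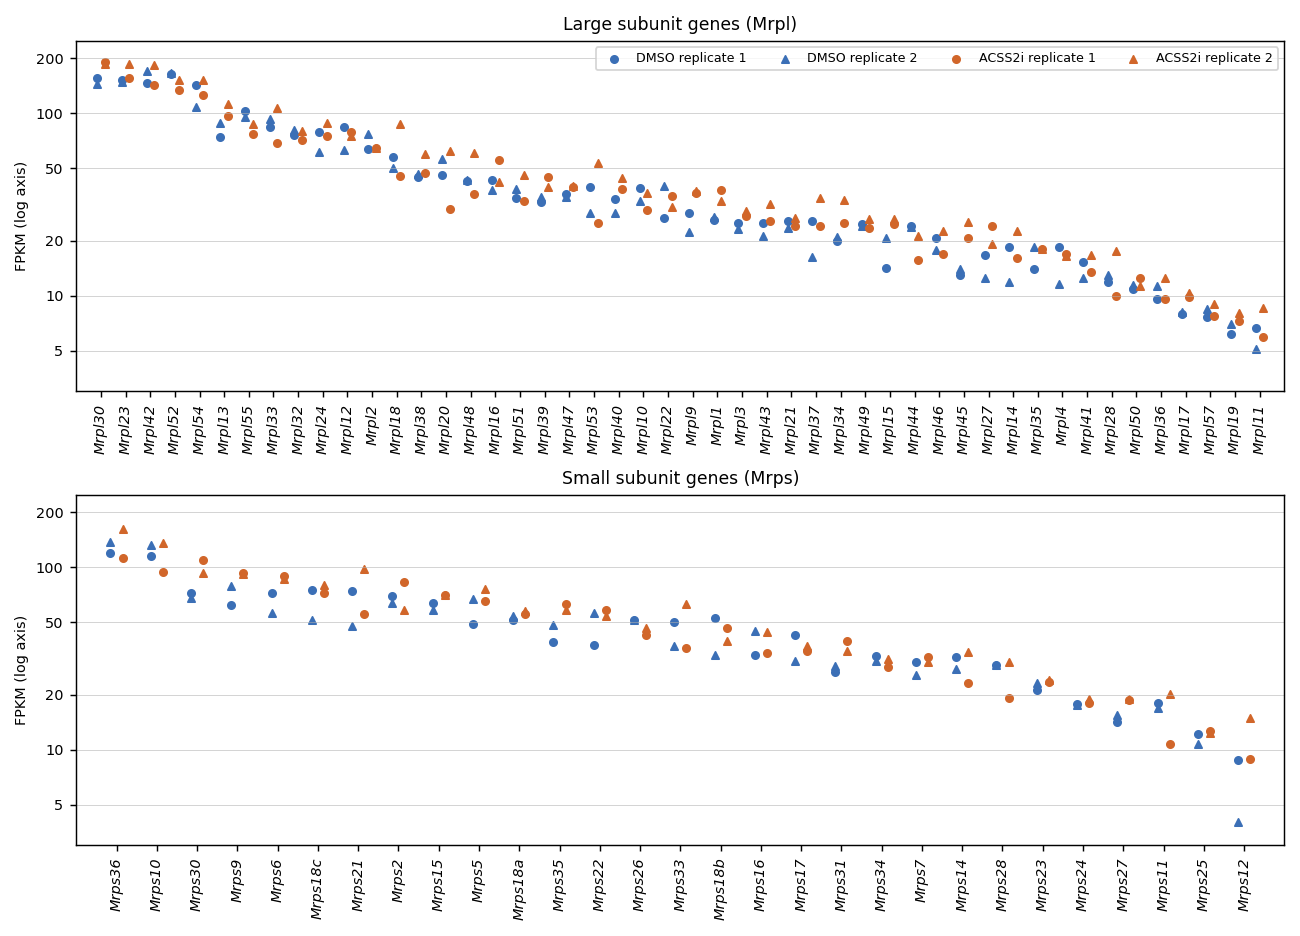
FPKM (log axis) of every mitoribosomal protein gene in each of the 4 libraries, large subunit symbols above and small subunit symbols below, ordered by the mean. Levels fall from 169 FPKM for Mrpl30 to 6.58 FPKM for Mrpl11, while the 4 libraries of a gene lie close together by comparison.

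The order of the members was nearly the same in the groups. Across the 77 genes, which share libraries and are not independent replicates, Pearson's r between the DMSO and the ACSS2i mean was 0.979 on a log2 scale and Spearman's rho was 0.978. Summed over all members the level was 3593 and 3501 FPKM with DMSO and 3644 and 4219 FPKM with ACSS2i. Both ACSS2i sums lay above both DMSO sums, the first of them by little, and the mean sum was 1.11 times that of DMSO. The FPKM of all genes did not add up to the same total in each library (590549 and 590108 with DMSO, 558458 and 675716 with ACSS2i). As a share of that total the members made up 0.608% and 0.593% with DMSO and 0.652% and 0.624% with ACSS2i, so that ACSS2i replicate 1 was then the higher of the pair and the ratio of the mean shares was 1.06.

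Gene by gene, most mitoribosomal protein genes had slightly higher values with ACSS2i, and no single one passed the test over all genes. Log2 differences, on the log2(FPKM + 1) scale, were positive in 62 of 77 members, against 52.2% of the 11486 genes tested. Both ACSS2i libraries lay above both DMSO libraries in 30 members (19.0% of all genes tested) and below both in 4 (18.3% of all genes tested), and the groups overlapped in 43. The median log2 difference was 0.15 over the members and 0.02 over all genes tested, and the members ran from -0.38 (Mrpl44) to 0.84 (Mrps12). By limma 0 of the 77 had an adjusted p under 0.05 (all genes: 0.0261%), the smallest being 0.609, and 1 had an unadjusted p under 0.05, Mrpl45 (all genes: 6.96%). That count of 1 was 0 without DMSO replicate 2 (all genes: 3.15%), 3 without ACSS2i replicate 1 (14.5%), 5 when ACSS2i replicate 2 was dropped (13.1%) and 9 without the filter on low values (5.51%). The median standard error of a member was 0.25, larger than the median difference.

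The counts moved with single libraries and with the scaling. Relative to the DMSO mean the median member stood at 0.10 in ACSS2i replicate 1 and 0.26 in ACSS2i replicate 2, and 46 and 68 of 77 members lay above that mean. Without ACSS2i replicate 1, 58 members were higher and 5 lower (all genes: 39.0% and 37.0%), with a median of 0.26. Leaving out ACSS2i replicate 2 instead, 34 members were higher and 23 lower (38.4% and 36.8%), with a median of 0.10. Without DMSO replicate 1, 44 members were higher and 9 lower (32.1% and 29.1%), with a median of 0.21, and without DMSO replicate 2, 39 members were higher and 10 lower (31.0% and 30.9%), with a median of 0.14. Groups of 2 and 1 are apart in more genes than groups of 2 and 2, as these background shares show. When short RNA genes, which took 6.59% to 11.6% of the FPKM, were left out before scaling, 48 of 77 differences were positive (all genes: 41.8%), 20 members were higher (all genes: 13.0%) and 9 lower (23.2%), with a median of 0.056 beside -0.065 over all genes. The distance of the members' median from that of all genes was 0.12 there and 0.13 in the fit as described. Quantile normalization gave 27 members higher and 8 lower (all genes: 18.2% and 18.8%).

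**Figure D3:**
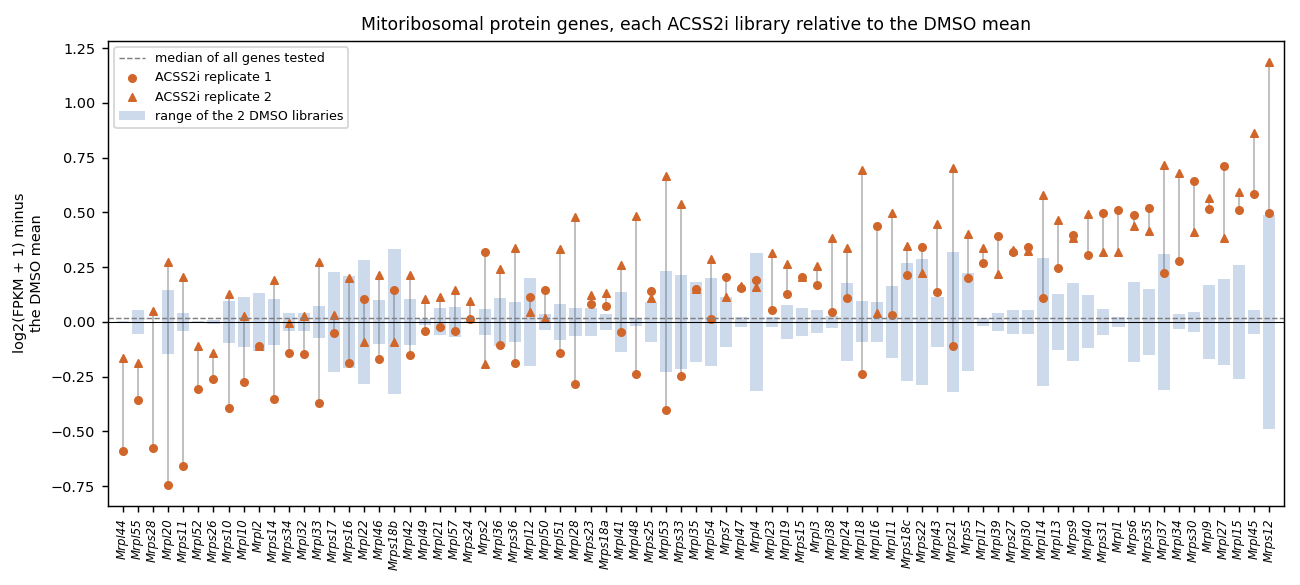
Each ACSS2i library relative to the DMSO mean, in log2(FPKM + 1), for the 77 genes ordered by their mean difference, with bars for the range of the 2 DMSO libraries and a dashed line at the median of all genes tested. At the right end both ACSS2i points lie above the DMSO range, from Mrpl40 (0.40) to Mrps12 (0.84) with the exception of Mrpl37, whose ACSS2i replicate 1 falls inside it, and at the left end Mrpl44 (-0.38) lies below it.

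All members but Mrps36 fall into 4 sets by subunit and origin. Of the 30 bacterial-type large subunit genes, 24 had a positive difference, 12 were higher without overlap and 1 lower (all genes tested: 52.2% positive, 19.0% higher and 18.3% lower), with a median of 0.19. Mrpl15, a core protein of the subunit, was at 14.1 and 20.7 FPKM in the DMSO libraries and 24.8 and 26.3 FPKM in the ACSS2i libraries. Both ACSS2i libraries were above both DMSO libraries, which themselves were apart, and the log2 difference was 0.55 ± 0.26 (SE; limma, unadjusted p = 0.0808). It went from 0.29 without DMSO replicate 1 to 0.81 without DMSO replicate 2. Mrpl27, a neighbour of the peptidyl transferase centre, was at 16.7 and 12.5 FPKM in the DMSO libraries and 24.3 and 19.1 FPKM in the ACSS2i libraries, a log2 difference of 0.55 ± 0.26 (SE). Mrpl9 was at 28.4 and 22.2 FPKM with DMSO and 36.4 and 37.6 FPKM with ACSS2i (0.54 ± 0.24, SE), and Mrpl34, one of the smallest proteins of the subunit, at 20.0 and 21.1 FPKM with DMSO and 25.2 and 33.5 FPKM with ACSS2i (0.48 ± 0.25, SE). In these 3 genes the groups were likewise apart. With 1 library left out Mrpl27 went from 0.35 without DMSO replicate 2 to 0.74 without DMSO replicate 1, Mrpl9 from 0.37 without DMSO replicate 2 to 0.71 without DMSO replicate 1, and Mrpl34 from 0.28 without ACSS2i replicate 2 to 0.68 without ACSS2i replicate 1. The one bacterial-type member lower in both libraries was Mrpl55, the counterpart of bacterial L31, at 103 and 95.3 FPKM in the DMSO libraries and 77.1 and 86.8 FPKM in the ACSS2i libraries (-0.27 ± 0.24, SE). Mrpl3, an early-binding core protein in the bacterial ribosome, was at 25.03 and 23.2 FPKM with DMSO and 27.2 and 29.0 FPKM with ACSS2i, a difference of 0.21 with no overlap.

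In the mitochondria-specific set of the large subunit, which here includes Mrps30 and Mrps18a by the place of their proteins, 18 of 20 differences were positive, 7 members were higher without overlap and 2 lower (all genes tested: 52.2% positive, 19.0% higher and 18.3% lower), and the median was 0.12. The ACSS2i libraries disagreed in this set. Against the DMSO mean its median was -0.012 in replicate 1 and 0.28 in replicate 2. Above that mean lay 10 of 20 members in replicate 1 and 18 in replicate 2. Mrpl45, the protein at the tunnel exit that ties the ribosome to the inner membrane (chromosome 11, 97315716 to 97329920 on the plus strand), was at 12.9 and 14.1 FPKM in the DMSO libraries and 20.8 and 25.3 FPKM in the ACSS2i libraries. The ACSS2i libraries were 1.71 times the DMSO mean on average, and the log2 difference was 0.72 ± 0.23 (SE; limma, unadjusted p = 0.0203, adjusted p = 0.609). It stayed between 0.59 and 0.86 with any 1 library left out. Mrps30 was at 71.8 and 67.4 FPKM in the DMSO libraries and 109 and 93.0 FPKM in the ACSS2i libraries, a log2 difference of 0.53 ± 0.24 (SE). The opposite was seen for Mrpl44, which has the fold of the RNA-cutting enzyme RNase III (chromosome 1, 79776018 to 79781445 on the plus strand), at 24.1 and 23.9 FPKM in the DMSO libraries and 15.6 and 21.3 FPKM in the ACSS2i libraries (-0.38 ± 0.25, SE; limma, unadjusted p = 0.178). Its DMSO values were nearly equal and both ACSS2i values were below them, by very different amounts, so that the difference went from -0.59 without ACSS2i replicate 2 to -0.17 without ACSS2i replicate 1. Mrpl52 was also lower in both ACSS2i libraries, at 164 and 166 FPKM with DMSO and 134 and 153 FPKM with ACSS2i.

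For the 16 bacterial-type genes of the small subunit 11 differences were positive, 6 members were higher without overlap and 0 lower (all genes tested: 52.2% positive, 19.0% higher and 18.3% lower), and the median was 0.11. Mrps12 (chromosome 7, 28739641 to 28741820 on the minus strand) had the largest difference of all members, 0.84 ± 0.41 (SE; limma, unadjusted p = 0.0859, adjusted p = 0.785), from the values given above. Its DMSO replicate 1 and ACSS2i replicate 1 were almost equal, and DMSO replicate 2, the lowest value, rested on a nominal 8.06 reads. Without DMSO replicate 2 the difference was 0.35, without ACSS2i replicate 2 it was 0.50, and without DMSO replicate 1 it was 1.33. Mrps6 was at 72.4 and 55.8 FPKM in the DMSO libraries and 89.6 and 86.5 FPKM in the ACSS2i libraries (0.46 ± 0.25, SE), with the groups apart. Mrps16, a bacterial-type protein, was at 33.1 and 44.7 FPKM with DMSO and 33.7 and 44.3 FPKM with ACSS2i, and both ACSS2i values lay between the DMSO values.

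Of the 10 mitochondria-specific genes of the small subunit 8 had a positive difference, 5 were higher without overlap and 1 lower (all genes tested: 52.2% positive, 19.0% higher and 18.3% lower), with a median of 0.14. Mrps35 was at 39.1 and 48.4 FPKM in the DMSO libraries and 62.8 and 58.3 FPKM in the ACSS2i libraries (0.47 ± 0.24, SE), and Mrps31 at 26.5 and 28.8 FPKM with DMSO and 39.5 and 34.7 FPKM with ACSS2i (0.41 ± 0.23, SE). Mrps27, a protein with pentatricopeptide repeats, was at 14.3 and 15.4 FPKM with DMSO and 18.8 and 18.9 FPKM with ACSS2i (0.32 ± 0.22, SE). The ACSS2i values of these 3 genes were all above their DMSO values. Mrps22 was at 37.6 and 56.3 FPKM with DMSO and 58.6 and 53.9 FPKM with ACSS2i, where DMSO replicate 1 stood apart from the other 3 libraries and the difference of 0.28 vanished without it (-0.0037). Mrps26 was the one member of the set lower in both ACSS2i libraries, at 51.7 and 51.1 FPKM with DMSO and 42.8 and 46.6 FPKM with ACSS2i, and Mrps34 overlapped, at 32.5 and 30.7 FPKM with DMSO and 28.6 and 31.5 FPKM with ACSS2i.

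By place in the large subunit, the 6 genes of the peptide exit (Mrpl17, Mrpl22, Mrpl23, Mrpl24, Mrpl45 and Mrpl47) all had positive differences, 4 without overlap (all genes tested: 52.2% positive, 19.0% higher and 18.3% lower), with a median of 0.20. Mrpl22 was close to 0 there (0.0062), and Mrpl17 was at 7.91 and 8.15 FPKM with DMSO and 9.89 and 10.4 FPKM with ACSS2i. The 7 genes of the central protuberance had a median of 0.22, 3 higher and 1 lower without overlap, with Mrpl40 at 33.9 and 28.5 FPKM with DMSO and 38.6 and 44.2 FPKM with ACSS2i (0.40 ± 0.24, SE). The ACSS2i libraries disagreed there, the medians against the DMSO mean being -0.17 in replicate 1 and 0.38 in replicate 2. In the 5 genes of the factor-recruiting stalk and its base (Mrpl10, Mrpl11, Mrpl12, Mrpl53 and Mrpl54) the groups overlapped in every one, and the median was 0.13. Mrpl12, the stalk protein that also binds the mitochondrial RNA polymerase, was at 83.8 and 63.0 FPKM in the DMSO libraries and 78.8 and 74.9 FPKM in the ACSS2i libraries, and its partner Mrpl10 at 39.1 and 33.2 FPKM with DMSO and 29.6 and 36.7 FPKM with ACSS2i.

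Genes with large and small subunit symbols had medians that lay closer together than the ACSS2i libraries did. The comparison goes by symbol, so the Mrps genes here include Mrps30 and Mrps18a, whose proteins lie in the large subunit. They also include Mrps36, which is not known as a ribosomal protein. The median difference was 0.16 over 48 Mrpl genes (40 positive, 17 higher and 3 lower without overlap) and 0.13 over 29 Mrps genes (22 positive, 13 higher and 1 lower), beside 52.2% positive, 19.0% higher and 18.3% lower among all genes tested. The gap between these medians, 0.031, was smaller than the gap between the 2 ACSS2i libraries within either subunit, which stood at 0.079 and 0.28 for Mrpl and 0.14 and 0.21 for Mrps, and it turned to -0.063 without ACSS2i replicate 2. In every library the median Mrpl level was under the median Mrps level: on the log2(FPKM + 1) scale Mrpl minus Mrps was -0.61 and -0.68 with DMSO and -0.51 and -0.39 with ACSS2i. The Mrpl median without ACSS2i replicate 1 was 0.28 and without replicate 2 0.079. The Mrps median was 0.21 without DMSO replicate 1, 0.052 without DMSO replicate 2 and 0.21 without ACSS2i replicate 1.

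The 3 Mrps18 paralogs belong to different places of the ribosome. Mrps18a, whose protein lies in the large subunit, was at 51.2 and 53.8 FPKM in the DMSO libraries and 55.2 and 57.6 FPKM in the ACSS2i libraries, and both ACSS2i values were above both DMSO values by a small margin (0.10 ± 0.22, SE). Mrps18b, mitochondria-specific and of the small subunit, was at 52.9 and 33.1 FPKM with DMSO and 46.5 and 39.3 FPKM with ACSS2i, and the groups overlapped (0.028 ± 0.30, SE). Mrps18c, closest to bacterial S18, was at 75.3 and 51.6 FPKM with DMSO and 72.5 and 79.7 FPKM with ACSS2i and overlapped as well (0.28 ± 0.28, SE). DMSO replicate 2 was the lowest library for Mrps18b and Mrps18c and not for Mrps18a. Exons of Mrps18b and Mrps18c overlap other annotated genes over 30.5% and 23.2% of their length, and each has a pseudogene copy with at least 95% identity over 200 bases or more, so their values may include reads of those loci.

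Such copies were found among GENCODE transcripts for 20 members, Mrps36 with 5 being the extreme, and 9 members shared over 20% of their exonic bases with another gene. Among the members with the highest levels, Mrpl30 had 2 copies and Mrpl23, Mrpl42 and Mrps10 1 each. At the low end Mrps25 and Mrpl19 shared 69.8% and 36.0% of their exonic bases with another gene. The order of levels given above may therefore include reads of other loci. The 51 members with neither had a median difference of 0.16, with 23 higher and 3 lower without overlap (all genes tested: 19.0% higher and 18.3% lower).

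The gap between the ACSS2i libraries was wider in short members. The members are short transcripts, with a median transcript length of 849.5 bases (418 to 3561) against 1348 over all genes tested. ACSS2i replicate 2 was above ACSS2i replicate 1 in 58 of 77 members. In the 39 members at or under the median length it was above in 31, with a median gap of 0.22, and in the 38 longer members in 27, with a median gap of 0.085. Spearman's rho between length and this gap was -0.34 across the 77 members, -0.13 across all genes tested with a length, and 0.17 for the gap between the DMSO libraries across the members, each a description of genes that share libraries. For the difference between groups rho was 0.015. Mrpl20, at 45.9 and 56.4 FPKM with DMSO and 30.0 and 61.8 FPKM with ACSS2i, and Mrpl53, at 39.4 and 28.3 FPKM with DMSO and 25.03 and 53.5 FPKM with ACSS2i, were short members in which the ACSS2i libraries lay on either side of both DMSO libraries. Mrpl53 shares 88.0% of its exonic bases with another gene on the same strand, the most of any member, so its values may include reads of that gene. With the length trend removed from each library, the members' median was 0.093, beside 0.0094 over all genes, and 26 members were higher and 6 lower (all genes: 18.6% and 18.7%). The split by length, Mrpl20 and Mrpl53 were chosen after the values were seen.

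**Figure D4:**
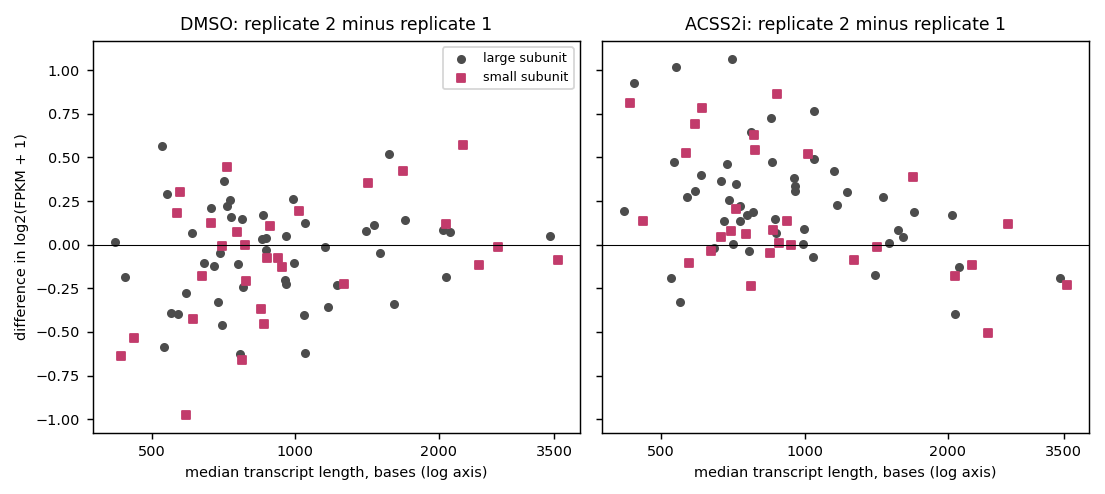
Difference between the replicates of a group in log2(FPKM + 1) (replicate 2 minus replicate 1) against median transcript length (bases, log axis), DMSO left and ACSS2i right, 1 point per mitoribosomal protein gene. The ACSS2i gap is widest among short transcripts, with a median of 0.22 in the shorter and 0.085 in the longer members.

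Of 74 other genes of mitochondrial gene expression, in the 5 lists below, 53 had positive differences, 22 were higher and 6 lower without overlap (all genes tested: 52.2% positive, 19.0% higher and 18.3% lower), and the median was 0.15, going from 0.11 without DMSO replicate 2 to 0.23 without ACSS2i replicate 2. By limma 0 had an adjusted and 1 an unadjusted p under 0.05 (all genes: 0.0261% and 6.96%). The 6 mitoribosomal proteins that carry other symbols had a median of 0.19, with 5 positive and 2 higher without overlap. That median went from 0.069 without ACSS2i replicate 2 to 0.29 without ACSS2i replicate 1. Dap3, the GTP-binding protein of the small subunit, was at 13.5 and 16.2 FPKM with DMSO and 17.2 and 23.9 FPKM with ACSS2i, and Ict1, a large subunit protein that can release stalled peptides, at 109 and 102 FPKM with DMSO and 115 and 131 FPKM with ACSS2i. Among 25 genes of ribosome assembly and rRNA modification 17 were positive, 9 higher and 3 lower without overlap (median 0.19, from 0.079 without ACSS2i replicate 1 to 0.30 without DMSO replicate 1). Mterf4, which brings the methyltransferase Nsun4 to the large subunit, was at 2.83 and 3.41 FPKM in the DMSO libraries and 5.10 and 5.59 FPKM in the ACSS2i libraries (0.63 ± 0.25, SE; limma, unadjusted p = 0.0465, adjusted p = 0.712), whereas Nsun4 itself, looked up after the values of Mterf4 were seen, was at 3.43 and 3.62 FPKM with DMSO and 2.81 and 3.11 FPKM with ACSS2i, lower in both. Malsu1, an assembly factor of the large subunit, was at 24.97 and 13.6 FPKM with DMSO and 28.7 and 29.3 FPKM with ACSS2i, with DMSO replicate 2 well under the other 3 libraries.

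Of 15 translation factors and partners 12 were positive and 6 higher and 1 lower without overlap (all genes tested: 52.2% positive, 19.0% higher and 18.3% lower), with a median of 0.23 that went from 0.14 without DMSO replicate 1 to 0.32 without DMSO replicate 2. Oxa1l, the inner membrane insertase that receives the new proteins at the peptide exit, was at 29.5 and 29.4 FPKM in the DMSO libraries and 52.3 and 36.6 FPKM in the ACSS2i libraries (0.56 ± 0.26, SE). The recycling factor Mrrf was at 20.3 and 20.5 FPKM with DMSO and 30.6 and 25.99 FPKM with ACSS2i (0.45 ± 0.23, SE). Lrpprc, which stabilises mitochondrial mRNAs, was at 28.2 and 29.4 FPKM with DMSO and 46.0 and 32.3 FPKM with ACSS2i, and the elongation factor Tufm overlapped, at 28.5 and 43.7 FPKM with DMSO and 34.8 and 51.2 FPKM with ACSS2i. Among 17 mitochondrial tRNA synthetases 14 were positive, and 4 higher and 1 lower without overlap, the share of higher ones being near that of all genes (median 0.15), with Fars2 at 12.2 and 10.1 FPKM with DMSO and 15.5 and 16.02 FPKM with ACSS2i and Cars2 at 4.82 and 2.48 FPKM with DMSO and 5.36 and 6.47 FPKM with ACSS2i.

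Mitochondrial transcription and DNA maintenance differed from these lists in its median, which was -0.0025 over 11 genes with 5 positive, and which turned positive without DMSO replicate 1 or ACSS2i replicate 2 and with median centring. Without overlap 1 of these 11 was higher and 1 lower, shares under those of all genes tested (19.0% and 18.3%). Polrmt, the mitochondrial RNA polymerase, was lower in both ACSS2i libraries, at 6.87 and 7.72 FPKM with DMSO and 5.58 and 5.41 FPKM with ACSS2i (-0.35 ± 0.23, SE; limma, unadjusted p = 0.177). Polg2, the accessory subunit of the mitochondrial DNA polymerase, was higher in both, at 1.66 and 1.79 FPKM with DMSO and 2.34 and 2.42 FPKM with ACSS2i. Tfam, which packages mitochondrial DNA and starts its transcription, overlapped, at 23.2 and 21.2 FPKM with DMSO and 22.7 and 18.1 FPKM with ACSS2i. Among nuclear regulators Gabpa was at 12.2 and 14.1 FPKM with DMSO and 14.6 and 17.1 FPKM with ACSS2i and Gabpb2 at 3.74 and 3.73 FPKM with DMSO and 4.92 and 4.41 FPKM with ACSS2i, both without overlap, and the median over 9 tested genes was 0.16. These were the only 2 of the 9 that were higher without overlap, and 0 were lower. The share of higher regulators was near the 19.0% of all genes tested. The mRNAs of the mitochondrial genome were not analysed here.

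Cytosolic ribosomal protein genes and nuclear-encoded subunits of the respiratory chain and ATP synthase had medians of 0.16 over 82 genes and 0.24 over 80 genes, beside 0.15 for the 77 mitoribosomal genes. Their ACSS2i libraries were farther apart: the medians relative to the DMSO mean were -0.061 and 0.36 for cytosolic ribosomal genes and -0.048 and 0.50 for the respiratory genes in replicates 1 and 2. Without overlap 13 of 82 and 20 of 80 were higher, beside 30 of 77 mitoribosomal genes and 19.0% of all genes tested. The first count lies under that background and the second not far above it. Lower without overlap were 1 of 82 and 0 of 80, beside 4 of 77 mitoribosomal genes and 18.3% of all genes tested. Differences were positive in 63 of 82 and 65 of 80, beside 62 of 77 mitoribosomal genes and 52.2% of all genes tested. Whether these lists differ from each other was not tested.

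**Figure D5:**
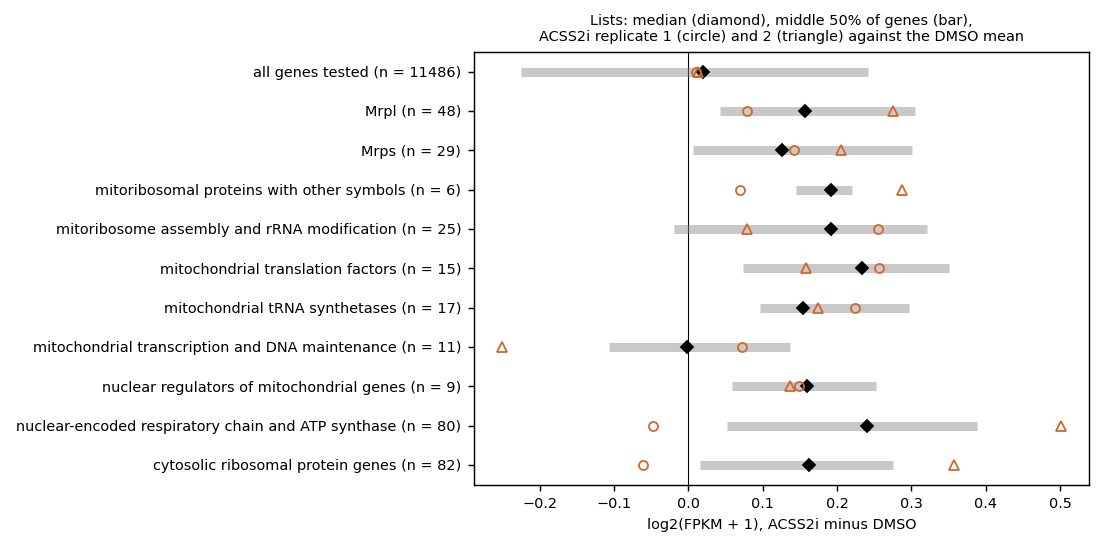
Log2 differences (ACSS2i minus DMSO, log2(FPKM + 1)) of gene lists: the diamond is the median over genes, the bar the middle 50% of genes, and the open circle and triangle the median of ACSS2i replicates 1 and 2 against the DMSO mean. Mrpl and Mrps stand at 0.16 and 0.13, beside 0.02 for all genes tested, and the 2 ACSS2i libraries lie far apart for the respiratory chain (-0.048 and 0.50) and the cytosolic ribosomal list (-0.061 and 0.36).

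Of the 18 head-to-head pairs in which the partner was tested, 13 had differences of the same sign and 5 of opposite sign (Mrpl2 with Klc4, Mrpl32 with Psma2, Mrpl37 with Cyb5rl, Mrpl41 with Pnpla7 and Mrps18b with Ppp1r10). Since 62 of all 77 members and 52.2% of all genes tested had positive differences, many unrelated genes would also share a sign. No share of equal signs was computed for unpaired genes, so the count does not tell whether pairs differed together. Cyb5rl was at 1.42 and 1.36 FPKM with DMSO and 0.336 and 0.926 FPKM with ACSS2i, a difference of -0.57 against 0.47 for Mrpl37. Sars2, the mitochondrial seryl-tRNA synthetase whose start lies 172 bases from that of Mrps12 on the other strand, was at 5.91 and 5.27 FPKM with DMSO and 4.97 and 7.01 FPKM with ACSS2i, a difference of 0.07 against 0.84 for Mrps12. Ska3, a spindle and kinetochore protein that starts 49 bases from Mrpl57, was at 0.270 and 0.01 FPKM with DMSO and 2.23 and 4.19 FPKM with ACSS2i (1.85; limma, unadjusted p = 0.00271), in the direction of the genes of mitosis, while Mrpl57 differed by 0.052. The Mrps27 partner Ptcd2, a mitochondrial pentatricopeptide repeat protein 81 bases away, was at 42.9 and 53.0 FPKM with DMSO and 69.9 and 67.9 FPKM with ACSS2i (0.52), the same direction as Mrps27 (0.32). The value of 0.01 FPKM is the floor of the table. The partners described were chosen after their values were seen.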

How the data were processed

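RNA sequencing of 4 libraries (2 with DMSO, 2 with ACSS2i) was analysed from 1 deposited table of 24341 genes. The authors' values were read as FPKM: the submitters' processing notes name Cufflinks 2.2.1, Cuffdiff, STAR 2.3.0, bcl2fastq 02.14.01.07 and build mm10. The header names no unit, and how values were adjusted or scaled is not given in the sources used here. A single gene with a failure mark was left out. The 11486 genes averaging 1 FPKM or more were tested on log2(FPKM + 1) with limma 3.58.1 in R 4.3.3 (mean-variance trend, two-sided, Benjamini-Hochberg over all genes tested). The fit was also run on simulated normal values with equal spread in all 4 libraries. Such values do not copy the differences in depth between the libraries, so that run does not show how the test behaves here. With 2 libraries a group, the smallest two-sided p of an exact permutation test is 0.333. Standard errors are limma's. Positions and lengths (median over transcripts) came from GENCODE M21, promoters from RefSeq, and pseudogene copies from BLAST+ 2.17.0 (other hits were dropped after the data were seen). Nominal depths were read from the most common ratio of values up to 0.5 FPKM and the lengths of genes with 1 transcript, and a depth wrong by a whole factor is possible. No intervals from depth are given here. Named members were those with the largest non-overlapping differences (up to 8 in each direction), the 3 highest and lowest levels of each subunit, the genes with the smallest p of each list (2 each) and a fixed set. A planned comparison of the Mrps18 proteins was not run. The members and lists were chosen with earlier results of these data known.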

Additional observations from a re-analysis of the deposited data

How the results depend on the processing

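No member passed an adjusted p of 0.05 under any alternative tried, and the members' median stayed positive under each. Over all genes limma called 3, with 6 at a pseudocount of 0.1, 8 with the replicate number as a block, 0 each at a pseudocount of 5, without a filter, with short RNA genes left out and with the length trend removed (795, 1342, 858 and 817 at an unadjusted p under 0.05), and 13 to 26 with 1 library left out, where only 1 group still has a pair of libraries and the lone library is assumed to vary alike. The block left every member's difference as it was and called 0 of them. The numbers pair the libraries by label only: deviations of same-numbered libraries correlated at -0.017 over the genes tested. With 1 library left out the range was 34 to 58 for members higher, 5 to 23 for members lower, 0.10 to 0.26 for the median, 0.079 to 0.28 for Mrpl, 0.052 to 0.21 for Mrps and -0.063 to 0.086 for Mrpl minus Mrps. Quantile normalization gave 8 members lower and leaving out short RNA genes 9, with medians of 0.056 over members and 0.037 over Mrps in the latter.

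Differences near 0 changed sign. With short RNA genes left out Mrpl12 was at -0.015, Mrpl42 at -0.065, Mrpl57 at -0.034, Mrps16 at -0.088, Mrps18b at -0.065 and Mrps36 at -0.021. With quantile normalization Mrpl42 was at -0.067, Mrps16 at -0.035, Mrps18b at -0.0072 and Mrps36 at -0.025, and with the length trend removed Mrpl42 was at -0.028, Mrps16 at -0.012 and Mrps18b at -0.027. With median centring the transcription list was at 0.0026. With 1 library left out the ranges were -0.27 to 0.025 for Mrpl10, -0.12 to 0.28 for Mrpl12, -0.15 to 0.21 for Mrpl42, -0.043 to 0.15 for Mrpl57, -0.39 to 0.13 for Mrps10, -0.66 to 0.21 for Mrps11, -0.20 to 0.22 for Mrps16, -0.30 to 0.36 for Mrps18b, -0.0037 to 0.57 for Mrps22, -0.19 to 0.34 for Mrps36 and -0.25 to 0.072 for the transcription list. Apart from what the left-out libraries and genes change by construction, the cause was not tested.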
